A study of Mus musculus with 12 samples.

Results

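Lamp5 interneurons are inhibitory neurons of the cerebral cortex named for the lysosome-associated membrane protein gene Lamp5. Here they were 455 nuclei of 51683, chosen by raw UMI counts (molecules counted once by their barcode) of 9 genes. A nucleus was taken with at least 2 UMIs of Gad1 and Gad2, which encode the enzymes that make GABA, at most 2 of the glutamatergic marker Slc17a7, and at least 5 of Lamp5, Ndnf and Sv2c together. It also had to hold at most 2 UMIs of Vip, 3 of Sst and 1 of Pvalb, markers of the other large interneuron classes. The limits on Gad1, Gad2 and Slc17a7 alone left 5831 GABAergic nuclei.

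The nuclei were dissected from the forelimb part (caudal forelimb area) of the right motor cortex of 6 mice, 13 weeks old, and sequenced singly in droplets from the 3' end of transcripts. All mice were on water restriction. Control mice 1, 3 and 5 had no motor training, and trained mice 2, 4 and 6 earned part of their water on the closing days by pressing a lever with the left paw while their heads were fixed. The sources name no strain, sex or transgene for any group, and each mouse is 1 replicate. Values by mouse are given in the order of control mice 1, 3 and 5 and then trained mice 2, 4 and 6.

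Most Lamp5 interneurons are neurogliaform cells, small cells with a dense axon that fill the space around them with GABA and act slowly through GABA-A and GABA-B receptors on many neighbours at once. In layer 1 of the neocortex the subset that expresses Ndnf, a secreted neurotrophic factor, reaches the apical dendrites of pyramidal neurons. They come mainly from the caudal ganglionic eminence of the embryo, and many make neuropeptide Y, the extracellular matrix protein reelin or nitric oxide.

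The members numbered 109, 88 and 73 in control mice 1, 3 and 5 and 55, 69 and 61 in trained mice 2, 4 and 6. Their summed counts ranged from 562504 UMIs in trained mouse 6 to 1054437 UMIs in control mouse 1. The median member held 8782, 7144 and 8248 in control mice 1, 3 and 5 and 9873, 8433 and 8571 in trained mice 2, 4 and 6 UMIs. All 6 mice gave members, and the depth ranges of the groups overlapped. Among kept nuclei, 307 barcode sequences occurred in more than 1 mouse, which included 5 members, and no sequence was shared by 2 members.

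The label was set beside a clustering of the 5831 GABAergic nuclei, which gave 27 clusters. The 9 genes of the rule were not left out of the clustering, so it is not an independent check of the label. In all, 411 members (90.3%) fell in 2 clusters that had Lamp5 among their 10 leading genes. Cluster 1 (465 nuclei, 229 of them members) was led by Sv2c, Pde11a, Npy, Crispld1, Sema5a, Lamp5 and Cacna2d1. Cluster 5 (349 nuclei, 182 members) was led by Ndnf, Ndst4, Rxfp1, Dock5, Apbb1ip, Lamp5 and Chrna7. Another 403 nuclei of these clusters were not members, 402 of them because their 3 marker genes summed to under 5 UMIs, and their median depth was 5286 UMIs against 8119 in the clustered members. Members were 50.5% of the nuclei of the 2 clusters.

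The remaining 44 members lay outside the 2 Lamp5-led clusters and went against the label. Of these, 21 were in a cluster led by Fam19a1, Sv2b, Hs3st4 and other genes, 8 in one led by the astrocyte genes Slc1a3, Slc1a2 and others, and 8 in one led by the oligodendrocyte genes St18, Mog and others. Scrublet, which scores nuclei against simulated mixtures of 2 nuclei, marked 23 members as doublets, all among these 44. The median depth of the 44 was 12474.5 UMIs. They made up 8.26, 12.5 and 13.7% of the members in control mice 1, 3 and 5 and 7.27, 10.1 and 4.92% in trained mice 2, 4 and 6. Levels and shares by class and most list genes are given over all 455 members. Marker sums of other cell types and the training differences of smallest p are also given for the 411 clustered members, where the genes could be tested.

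Markers of other cell types were summed in the members of each mouse. All 6 astrocyte markers had UMIs, at 192 to 237 CPM over the controls against 104 to 175 CPM over the trained mice, so the groups did not overlap. In the clustered members the sum was 68.1 to 123 CPM over the controls against 101 to 114 CPM over the trained mice, the groups overlapped, and Aqp4 was at 0. The 6 oligodendrocyte markers summed to 96.2 to 258 CPM over the controls against 81.8 to 141 CPM over the trained mice, highest in control mouse 5, and to 33.9 to 45.4 CPM over the controls against 30.1 to 48.7 CPM over the trained mice in the clustered members. The 9 glutamatergic markers summed to 499 to 611 CPM over the controls against 443 to 484 CPM over the trained mice, without overlap, and to 340.4 to 431 CPM over the controls against 302 to 423 CPM over the trained mice in the clustered members, with overlap. Of the 3 markers of oligodendrocyte precursors, at 82.02 to 101 CPM over the controls against 44.4 to 74.4 CPM over the trained mice, Cspg4 was at 0 in the clustered members, where the sum was 81.5 to 114 CPM over the controls against 46.4 to 82.5 CPM over the trained mice. The 5 microglial markers summed to 40.2 to 65.1 CPM over the controls against 29.8 to 66.4 CPM over the trained mice, and to 41.7 to 70.1 CPM over the controls against 31.9 to 44.4 CPM over the trained mice in the clustered members, with overlap in both. The 5 vascular markers, with Cldn5 at 0, summed to 4.74 to 10.8 CPM over the controls and at most 1.78 CPM over the trained mice. In the clustered members, with Dcn also at 0, that sum was 2.26 to 13.96 CPM over the controls against 0 to 1.93 CPM over the trained mice, again without overlap. Of other interneuron classes, 3 of 5 Vip class markers had UMIs, at 3.095 to 16.1 CPM over the controls against 0 to 6.48 CPM over the trained mice, and Calb2 and Crispld2 had none. Of the Sst class 4 of 5 had UMIs, at 23.04 to 40.8 CPM over the controls against 26.7 to 35.6 CPM over the trained mice, and Chodl had none. Of the Sncg class 3 of 4 had UMIs (Cnr1, Cck and Slc17a8), at 251 to 404 CPM over the controls against 293 to 395 CPM over the trained mice, and Sncg itself had none. Of 7 markers of striatal neurons 6 had UMIs, at 797 to 1075 CPM over the controls against 838 to 1397 CPM over the trained mice, and Adora2a had none. The groups overlapped in each of these 4 sums, and in the clustered members they were 3.79 to 15.8 CPM over the controls against 0 to 7.52 CPM over the trained mice for Vip, 22.7 to 40.7 CPM over the controls against 19.3 to 39.5 CPM over the trained mice for Sst, 279 to 434 CPM over the controls against 317 to 409 CPM over the trained mice for Sncg and 830.2 to 1051 CPM over the controls against 806 to 1340.1 CPM over the trained mice for striatal markers. No UMI among the 4222970 member UMIs allows a level of up to 0.7104 CPM (3 UMIs, counting error only).

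The summed threshold of 5 UMIs cut through the 2 clusters. The 67 members at exactly 5 held 1559 CPM of Npy, 616 CPM of Reln and 509.9 CPM of Kit. The 94 nuclei just outside, at 4, held 2114, 834 and 463 CPM. Of the nuclei at 4, 91.5% lay in the 2 Lamp5-led clusters, against 86.6% of those at 5. The median member had a sum of 8, and the range was 5 to 33.

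Levels in the members were set beside 684 Vip, 833 Sst, 285 Pvalb and 4531 glutamatergic comparison nuclei. Vip nuclei were taken with at least 5 Vip UMIs, Sst nuclei with at least 8 of Sst and Pvalb nuclei with at least 4 of Pvalb, each with at most 2 of the 3 Lamp5-class markers. The rule chose the members against these classes, so the values are a description with no test. They are CPM (UMIs of a gene per common library total, with TMM factors set over all classes together), given as the mean ± SD of 6 mice, trained and control together. The training comparison further on scales the members alone, so its CPM differ slightly.

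The 3 chosen markers were high in the members in every mouse. Lamp5 (chromosome 2, 136052239 to 136069917 of the mouse build mm10) was at 221, 308 and 258 CPM in controls and 211, 232 and 238 CPM after training. Its mean was 245 ± 34.8 CPM, against 9.05 ± 2.295 in Vip, 3.698 ± 2.94 in Sst and 4.71 ± 1.65 in Pvalb nuclei. The glutamatergic nuclei held 47.1 ± 9.497 CPM of Lamp5. Ndnf (chromosome 6, 65671590 to 65712326) was at 287, 232 and 313 CPM in controls and 183, 245 and 267 CPM after training, and Sv2c (chromosome 13, 95954594 to 96132577), a synaptic vesicle protein gene, at 478, 438 and 328 CPM in controls and 475, 402 and 452 CPM after training. Trained mouse 2 was lowest for Lamp5 and Ndnf and control mouse 5 for Sv2c. Reln (chromosome 5, 21884454 to 22344702), the fourth marker and no part of the rule, was at 869.5, 851 and 1127 CPM in controls and 912, 778 and 846 CPM after training. Its mean of 897 ± 121 CPM in the members lay within the spread of the Sst nuclei, 873 ± 118 CPM, and above the Vip (57.3 ± 25.03) and Pvalb nuclei (36.5 ± 18.9).

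The 15 genes of largest log2 ratio to the mean of the 3 interneuron classes (5 CPM added) included the 3 chosen markers, Sv2c (5.40), Ndnf (5.15) and Lamp5 (4.53). Next was the phosphodiesterase gene Pde11a, at 579 ± 67.2 CPM in the members and 59.8 ± 25.7 in the Vip nuclei, with a log2 ratio of 4.43. Cacna2d1, a calcium channel subunit gene, was at 1248 ± 106 CPM and had a log2 ratio of 3.58, but glutamatergic nuclei held 913 ± 62.9 CPM. Fgf13, an intracellular fibroblast growth factor that binds sodium channels, had a log2 ratio of 3.10. Crispld1 (3.86), Atp6ap1l (3.85), Adamtsl1 (3.45), Hapln1 (3.05), which links hyaluronan in the matrix, Nyap2 (3.04), Pip5k1b (3.03), the cation channel gene Trpc5 (2.98) and the adhesion gene Igsf11 (2.96) followed, each with its log2 ratio. Id2, a transcriptional regulator used as a neurogliaform marker, had a log2 ratio of 3.05. For all 15, the lowest of the 6 mice in the members lay above every mouse of the 3 other interneuron classes. For Sv2c, Ndnf and Lamp5 the choice of nuclei itself favoured this.

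Transcription factor genes of the 2 embryonic sources of interneurons differed in level between the members and the Sst or Pvalb nuclei, though not all in 1 direction. Adarb2, an RNA-editing family gene used to mark the caudal source, was at 5235 ± 765 CPM in the members and 11829 ± 2066 CPM in Vip nuclei, against 13.3 ± 10.7 in Sst and 13.7 ± 11.1 in Pvalb nuclei. Prox1, a homeobox gene of that lineage, was at 124 ± 21.5 CPM in the members and 264 ± 43.1 in Vip nuclei. Lhx6, which is needed for interneurons of the medial source, was at 2.42 ± 2.68 CPM in the members and at 90.2 ± 11.9 in Sst and 65.4 ± 11.7 in Pvalb nuclei. Sox6 and Satb1, which act downstream of Lhx6, were at 11.99 ± 6.43 and 14.7 ± 3.78 CPM in the members and at 1012 ± 63.2 and 490.1 ± 34.8 CPM in Sst nuclei. Counted per nucleus, 8 of 455 members had a Lhx6 UMI (1.76%, exact 95% interval 0.762 to 3.43%). In Vip and glutamatergic nuclei, which should lack Lhx6, the shares were 0.439% and 0.375%. At 2000 UMIs per nucleus the expected shares were 0.529% in members and 16.6% in Sst nuclei. The median depths were 8482 UMIs in members, 6260.5 in Vip and 13427 in glutamatergic nuclei. Not every gene of the lists followed these levels. Maf, also of the medial lineage, was at 275 ± 22.8 CPM in the members, at 266 ± 44.7 in Vip nuclei, 459.6 ± 38.1 in Sst nuclei and 208 ± 36.2 in Pvalb nuclei. The caudal list gene Npas1 was at 4.34 ± 1.51 CPM in the members, below Vip (100.4 ± 8.69) and Sst nuclei (63.9 ± 6.903), and Npas3 was at 646 ± 229 CPM, below Sst (1659.9 ± 231) and near Pvalb nuclei (534 ± 108).

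Among neuropeptide genes, Npy (chromosome 6, 49822710 to 49829507) was at 1042, 1619 and 1180.2 CPM in controls and 736, 1785 and 1137 CPM after training. The mice varied by more than in the other markers, with trained mouse 2 lowest and trained mouse 4 highest. The mean was 1249.8 ± 387 CPM, against 607 ± 197 in Sst and 161 ± 31.7 in Vip nuclei. The receptor genes for neuropeptide Y were lower in the members than in Vip nuclei, with Npy1r at 17.8 ± 5.72 and 134 ± 14.4 CPM and Npy2r at 0.956 ± 1.15 and 38.8 ± 6.34 CPM. The peptide genes of the Vip class, Crh, Tac2 and Penk, were at 0.669 ± 1.07, 5.34 ± 6.61 and 1.21 ± 1.88 CPM in the members and at 209 ± 48.9, 453 ± 34.6 and 185 ± 35.7 CPM in Vip nuclei. The µ-opioid receptor gene Oprm1 was at 103 ± 15.4 CPM, above the Vip (52.8 ± 10.9), Sst (53.6 ± 8.71) and Pvalb nuclei (5.37 ± 3.75) in every mouse.

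For GABA release and reception, the members were high in Gad2 (1063 ± 67.2 CPM, against 375 ± 38.3, 399 ± 33.2 and 199.8 ± 20.03 in Vip, Sst and Pvalb nuclei). Gad2 is a gene of the rule. Gabra5, a subunit of receptors outside the synapse, was at 119.6 ± 16.6 CPM in the members and at 10.9 ± 4.22, 11.2 ± 2.07 and 18.8 ± 6.85 CPM in the 3 other classes. Gabbr2, a subunit of the slow GABA-B receptor, was at 878 ± 237 CPM and also above all 3 in every mouse. Gabrd, a subunit of receptors for ambient GABA, was at 62.2 ± 14.5 CPM in the members, below the Pvalb nuclei (116 ± 8.34) and above the Vip nuclei (8.32 ± 4.12). Slc32a1, the vesicular GABA transporter gene, was at 135 ± 25.6 CPM, within the range of the other classes (128 ± 22.97 in Sst to 154 ± 21.6 in Vip nuclei).

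Of the genes for neuromodulator receptors, Adra1a, an α1-adrenergic receptor, was at 627 ± 58.01 CPM in the members and at 242 ± 64.4, 69.9 ± 9.95 and 186 ± 24.9 CPM in Vip, Sst and Pvalb nuclei. The serotonin receptor gene Htr1f was at 386 ± 84.97 CPM, also above the 3 classes in every mouse. Htr3a, the ionotropic serotonin receptor that marks Vip nuclei, was at 0.944 ± 1.09 CPM against 80.7 ± 14.2 in Vip nuclei. Chrm2 and Chrm3, muscarinic receptors, were at 1.91 ± 2.76 and 185 ± 20.5 CPM in the members and at 150.3 ± 44.4 and 1556 ± 177 CPM in Sst nuclei. Nos1, neuronal nitric oxide synthase, was at 26.4 ± 7.69 CPM in the members and 70.5 ± 31.4 in Sst nuclei. Per nucleus, 21.1% of members and 12.5% of Sst nuclei had a Nos1 UMI. At 2000 UMIs per nucleus the expected shares were 5.72% and 7.03%, so the higher Sst mean does not reflect a larger share of nuclei to the same degree.

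**Figure D1:**
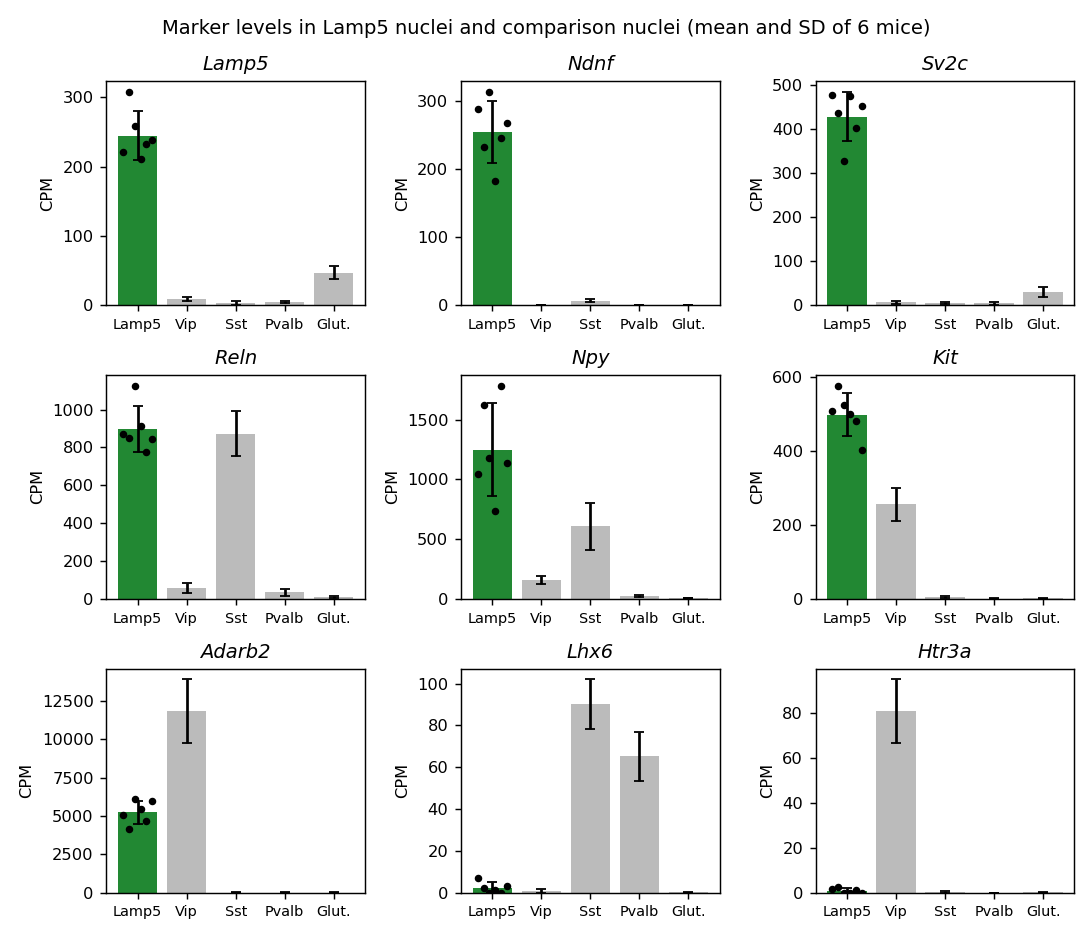
Levels of 9 genes in CPM in Lamp5 members and in Vip, Sst, Pvalb and glutamatergic comparison nuclei. Bars are means and error bars SD of 6 mice (cut at 0), and black points are the members of single mice. Lamp5, Ndnf and Sv2c chose the members and are high there in every mouse, Reln is as high in Sst nuclei, Adarb2 is shared with Vip nuclei, and Lhx6 and Htr3a are near 0 in the members.

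How many nuclei carried a gene was compared after each nucleus was thinned at random to 2000 UMIs. The share of members with an Npy UMI was 65.1, 69.3 and 69.9% in controls and 54.5, 81.2 and 55.7% after training. For Reln it was 46.8, 53.4 and 63.01% in controls and 50.9, 62.3 and 60.7% after training. For Ndnf it was 28.4, 26.1 and 42.5% in controls and 29.1, 39.1 and 31.1% after training. None of the 3 separated trained from control mice, and exact two-sided permutation tests over 3 against 3 mice gave p = 0.8, 0.7 and 0.9 (adjusted over 7 genes, 1 each), where the smallest possible is 0.1. Nos1 was found in 8.26, 2.27 and 2.74% in controls and 7.27, 11.6 and 3.28% after training. The immediate early gene Fos was found in 0.917, 1.14 and 5.48% in controls and 1.82, 11.6 and 4.92% after training, with p = 0.3 by the same exact test (adjusted 0.933). Without thinning, 85.9% of members had an Npy UMI, 63.7% a Reln UMI, 52.3% an Ndnf UMI, 21.1% a Nos1 UMI and 9.45% a Fos UMI. In glutamatergic nuclei, which mostly lack them, the unthinned shares were 9.998% for Npy, 7.26% for Reln, 0.265% for Ndnf and 2.94% for Nos1.

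The share of Lamp5 nuclei overlapped between the groups. Among GABAergic nuclei it was 8.86, 7.46 and 8.64% in controls and 6.501, 7.09 and 8.06% after training. The means were 8.32% ± 0.755 in controls and 7.22% ± 0.786 after training (SD, n = 3 mice per group), and the exact two-sided permutation test gave p = 0.2. Of all kept nuclei the share was 1.07, 0.702 and 0.949% in controls and 0.775, 0.798 and 1.099% after training, with p = 1 by the same exact test. Taking all 814 nuclei of the 2 Lamp5-led clusters, which does not use the UMI minimum, the shares of GABAergic nuclei were 14.9, 14.1 and 13.8% in controls and 12.2, 15.01 and 13.1% after training, and the exact p was 0.5. Of the members in the 2 clusters, the Ndnf-led cluster 5 held 37, 44.2 and 63.5% in control mice 1, 3 and 5 and 39.2, 45.2 and 39.7% in trained mice 2, 4 and 6. Control mouse 5 alone had most of its clustered members in that cluster, and the exact p was 0.7.

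**Figure D2:**
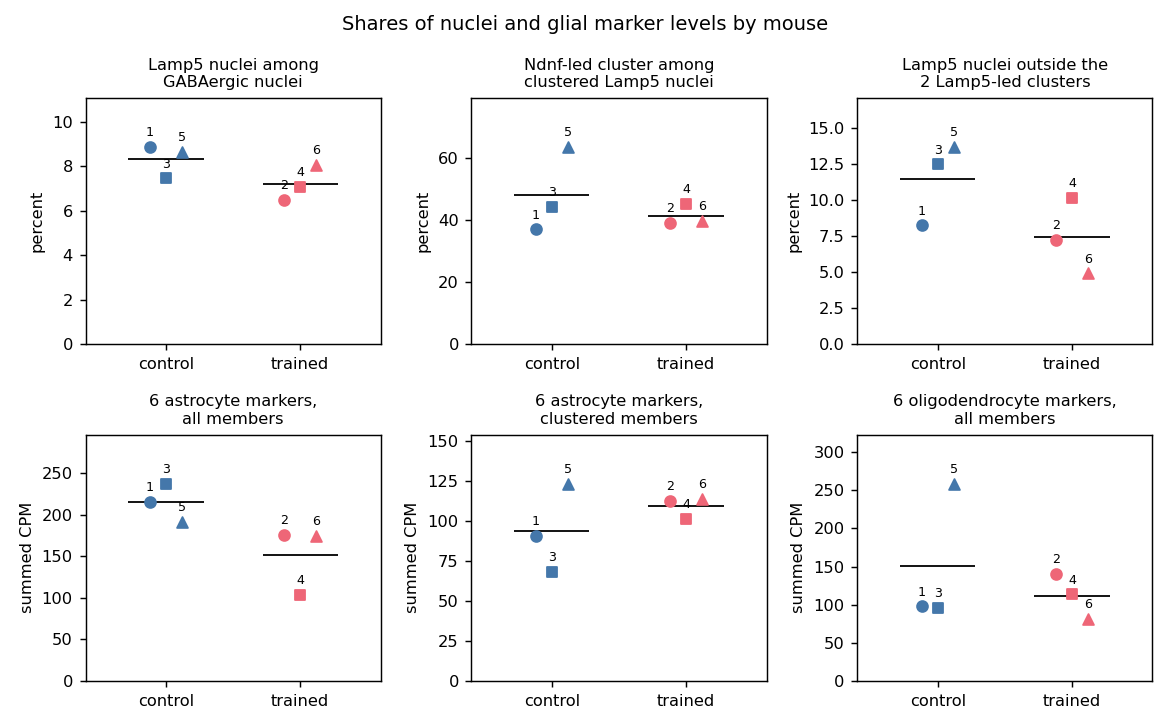
Measures per mouse, with control mice in blue, trained mice in red, the mouse number at each point and a line at the mean of 3 mice. The upper panels show percentages of nuclei and the lower ones the summed CPM of glial markers in the members. The share of Lamp5 nuclei overlaps between groups, and the astrocyte marker sum is higher in all 3 controls over all members but not over clustered members.

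The members were not uniform. Split by Ndnf after thinning each nucleus to 2000 UMIs, 147 nuclei with at least 1 Ndnf UMI were compared with 308 without, as UMI sums per mouse with mouse as a block, and with the 9 genes of the rule left out. By the quasi-likelihood test of edgeR, adjusted after Benjamini and Hochberg, 101 of 1133 genes tested (8.91%) were higher with Ndnf and 78 (6.88%) lower, at an adjusted p under 0.05. A nucleus without an Ndnf UMI at this depth may still express the gene. The rule sums Ndnf with Lamp5 and Sv2c, so members low in Ndnf had to be higher in the other 2. Among members with at least 5 UMIs of Lamp5 and Sv2c alone, 128 of 829 genes passed, and 116 of them had passed before. In the clustered members 178 of 999 passed. The split rests on all 6 mice, 3 of them trained, and training does not enter it. Its log2 differences come from fits with TMM factors set over the genes tested. Its CPM use factors set over all genes, so ratios of the CPM differ from the log2 differences.

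Reln was higher in the nuclei with Ndnf in 6 of 6 mice. Its level with Ndnf was 2154, 2088 and 1834, then 1928, 1659 and 1643 CPM in control mice 1, 3 and 5 and in trained mice 2, 4 and 6, and without Ndnf it was 549, 685 and 732, then 674, 545 and 543 CPM in the same order. The log2 difference was 1.79 ± 0.12 (SE), with an adjusted p of 1.31e-21 by edgeR. Grik1 (chromosome 16, 87895900 to 88290265), a kainate receptor subunit, was higher by 1.81 ± 0.11 (edgeR adjusted p 3.34e-22). Its levels ranged from 1518 to 2830.2 CPM with Ndnf and from 594 to 946 CPM without, so the 2 sets did not overlap. The other named genes higher with Ndnf were Ptprt (1.93 ± 0.17), a receptor tyrosine phosphatase of cell adhesion, Sema3e (1.99 ± 0.18), an axon guidance ligand, and Npas3 (1.72 ± 0.15), a transcription factor of the caudal lineage list. Zfp804b (1.37 ± 0.14), Galntl6 (1.22 ± 0.094), Cntnap2 (1.12 ± 0.091), Cntn5 (0.99 ± 0.088) and Erbb4 (0.78 ± 0.082), the neuregulin receptor of interneurons, completed the 10, all higher in 6 of 6 mice (log2 difference ± SE).

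Npy was lower in the nuclei with Ndnf in 6 of 6 mice. It was at 466, 385 and 601, then 535, 703 and 249 CPM with Ndnf and at 1676, 2523 and 1787, then 1049.8, 3168 and 1791 CPM without, a log2 difference of -1.85 ± 0.14 (edgeR adjusted p 3.76e-18). With Ndnf the highest mouse reached 703 CPM, below the lowest mouse without, 1049.8 CPM. Htr1f, the serotonin receptor described among the members' genes, was lower, at -2.09 ± 0.22, Pcdh15, a protocadherin, at -2.15 ± 0.25 and Opcml, an adhesion protein, at -1.64 ± 0.13, each as a signed log2 difference. Ndst3 (-1.84 ± 0.25) and Tmeff2 (-1.83 ± 0.26) differed by as much, and Ptchd4 (-1.31 ± 0.16), Grin2a (-0.70 ± 0.10), Kcnip4 (-0.69 ± 0.095) and Dlg2 (-0.65 ± 0.091) by less. All 10 were lower in 6 of 6 mice.

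By gene group, the split touched receptors, channels and adhesion genes in both directions. The counts stand against 8.91% of all genes tested higher and 6.88% lower. Of 16 tested adhesion genes, 9 were higher with Ndnf and 2 lower (median log2 difference 0.46, against -0.0053 over all genes tested). They included the neurexin Nrxn3 (0.69 ± 0.089), a presynaptic adhesion receptor, Cntn4 (1.31 ± 0.18) and Lrfn5 (0.995 ± 0.14), while Ptprd (-0.76 ± 0.11) and Lrrtm3 (-0.48 ± 0.16) were lower. Of 14 glutamate receptor and gap junction genes, 5 were higher and 2 lower (median 0.15). The kainate receptor gene Grik2 (0.70 ± 0.094), Grid1 (1.09 ± 0.20) and the NMDA receptor gene Grin3a (1.34 ± 0.28) were higher, and the NMDA receptor genes Grin2a and Grin2b (-0.33 ± 0.11) lower. Of 22 channel genes, 5 were higher and 3 lower (median 0.10). Kcnc2 (1.73 ± 0.19), a channel of fast spiking, and Kcnq3 (1.08 ± 0.18) were among the higher ones. Of 6 postsynaptic scaffold genes 0 were higher and 4 were lower, namely Homer2 (-0.74 ± 0.22), Dlg2, Dlgap1 (-0.26 ± 0.092) and Dlgap2 (-0.34 ± 0.12).

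Of 5 modulator receptor genes, Chrna7, the α7 nicotinic receptor, was at 257, 588 and 443, then 241, 379 and 348 CPM with Ndnf and 130.1, 167 and 372, then 129.6, 61.9 and 247 CPM without (1.22 ± 0.22), and the cannabinoid receptor gene Cnr1 at 546, 304 and 553, then 482, 469 and 423 and 202, 184 and 124, then 168, 111 and 247 CPM (1.59 ± 0.20). Both were higher with Ndnf in 6 of 6 mice. Cnr1 is also 1 of the 4 markers listed for the Sncg class of interneurons and the only 1 of them tested in the split. Htr1f, given before, was the modulator receptor gene that was lower. Of the 6 tested neurogliaform genes, Reln and the relaxin receptor gene Rxfp1 (1.78 ± 0.31) were higher and Npy lower. Kit (-0.047 ± 0.15, adjusted p 0.898), Hapln1 (-0.70 ± 0.33, adjusted p 0.151) and Sema5a (-0.27 ± 0.16, adjusted p 0.306) did not pass edgeR's test. Adarb2 (0.23 ± 0.085, adjusted p 0.0516) and Maf (-0.25 ± 0.19, adjusted p 0.44) did not pass it either. Of 11 GABA genes, Gabrb1 alone passed and was higher (0.69 ± 0.16). Of 8 release genes, Syt1 was higher (0.27 ± 0.088) and Rims1 lower (-0.59 ± 0.093). In CPM, Syt1 was higher with Ndnf in 4 of 6 mice, with means of 3866 CPM with Ndnf and 3619 CPM without. The counts of both lists lie near the shares over all genes tested.

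**Figure D3:**
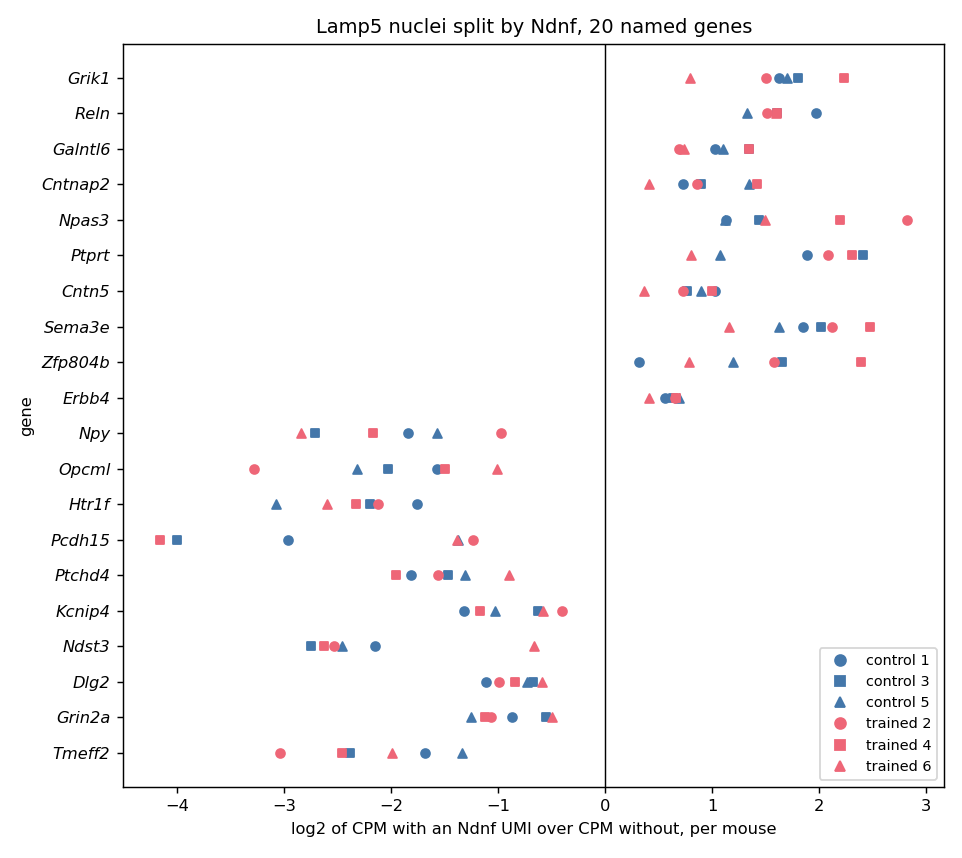
Log2 ratio of CPM in Lamp5 nuclei with an Ndnf UMI to CPM in those without, for the 10 genes of smallest p in each direction. Each point is 1 mouse, blue for control and red for trained. All points of the 10 upper genes lie above 0 and all points of the 10 lower genes below 0.

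Training was compared in the members as 3 trained against 3 control mice on UMI sums. No gene passed the threshold, 0 of 7940 tested (0%), by edgeR's quasi-likelihood test at a Benjamini-Hochberg adjusted p under 0.05. At an unadjusted p under 0.05 there were 354 genes (4.46%), 177 higher in trained mice (2.23%) and 177 lower (2.23%), and DESeq2 called 0. For 354 genes (4.46%) all trained mice lay above all controls, and for 454 (5.72%) all lay below. The median log2 fold change of all genes tested was -0.000336. In sums over nuclei a change in the make-up of the members and a change within nuclei cannot be told apart. The genes of smallest p are given with their values, and none of the differences passed.

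Homer2 (chromosome 7, 81600481 to 81707527), a scaffold of the postsynaptic density that binds metabotropic glutamate receptors, was at 235, 251 and 213 CPM in controls against 450.2, 319 and 429 CPM after training. The lowest trained mouse lay above the highest control. The log2 fold change was 0.79 ± 0.15 (SE), with an adjusted p of 0.299 by edgeR and 0.0605 by DESeq2. It was 0.68 in the clustered members and 0.62 ± 0.13 in all 814 nuclei of the clusters. Without trained mouse 4, Homer2 and Plekhg1 passed edgeR's test, and Plekhg1 was named after its values were seen. Homer2 was also lower in members with Ndnf, as given with the split.

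Gabbr2 (chromosome 4, 46662305 to 46991873), the GABA-B receptor subunit, was at 883, 786 and 624 CPM in controls against 1354, 1025 and 1095 CPM after training, with no overlap (log2 fold change 0.61 ± 0.14, edgeR adjusted p 0.436). Chn2, which encodes a regulator of the small GTPase Rac, was at 117, 97.04 and 85.5 CPM in controls against 258, 179.7 and 130.3 CPM after training (0.92 ± 0.20, adjusted p 0.349). Zbtb16, a zinc finger transcription factor on the list of glucocorticoid-responsive genes, was at 474, 496 and 408 CPM in controls against 708, 619 and 646 CPM after training (0.53 ± 0.12, adjusted p 0.463). In all 3 genes each trained mouse lay above each control. Their log2 fold changes in the clustered members were 0.54, 0.89 and 0.45. Ubash3b, a phosphatase gene, and Lima1, which encodes an actin-binding protein, had log2 fold changes of 0.73 ± 0.15 and 1.13 ± 0.24 (adjusted p 0.3102 and 0.3102). Lima1 rested on 158 UMIs in all members, and its log2 fold change was 0.49 ± 0.21 in all nuclei of the clusters. In the clustered members Ubash3b was at 0.63 and Lima1 at 0.92.

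Among the lower genes, Cox6a2 (chromosome 7, 128205435 to 128206387), a subunit of cytochrome c oxidase found mainly in muscle and in Pvalb neurons, was at 17.5, 25.6 and 24 CPM in controls against 1.699, 4.69 and 5.43 CPM after training. All trained mice lay below all controls. The gene had 60 UMIs in all members, the log2 fold change was -2.41 ± 0.49 and the edgeR adjusted p 0.3102. It was -2.52 in the clustered members and -1.54 ± 0.37 in all nuclei of the clusters. Cox6a2 is 1 of the 5 markers listed for Pvalb neurons, all of them detected, and their sum overlapped between groups, at 264 to 297 CPM over the controls against 213 to 305 CPM over the trained mice. Most of that sum was Kcnc1, at 226 ± 24.8 CPM in the members, 216 ± 29.4 in Vip and 182 ± 21.3 in Sst nuclei. Of these markers the rule limits Pvalb alone, to at most 1 UMI. The part of Pvalb-type content in the Cox6a2 difference was not tested. The 2 markers that were tested both had a lower mean after training, but 1 of them was Cox6a2 itself. Their median log2 fold change of -1.21 therefore includes the Cox6a2 value. Scaled over all classes, Kcnc1 was at 257, 210 and 217 CPM in controls against 236, 248 and 191 CPM after training, with overlap. Gpc5 (chromosome 14, 115092215 to 116525179), a glypican that astrocytes express strongly, was at 154, 190 and 58.5 CPM in controls against 50.97, 4.69 and 47.1 CPM after training (-2.001 ± 0.43, adjusted p 0.323). The astrocyte marker sum was also lower in the trained mice over all members and overlapped over the clustered members, where Gpc5 had too few UMIs to be tested. The part of astrocyte material in the result was not tested, and Sst nuclei held more Gpc5 than the members in every mouse. Without control mouse 5, Gpc5 passed edgeR's test, as the only gene. Grm8, a presynaptic glutamate receptor, was at 115, 171 and 139.5 CPM in controls against 98.5, 75.01 and 74.2 CPM after training (-0.76 ± 0.19, adjusted p 0.527), but its log2 fold change was -0.21 in the clustered members and -0.10 ± 0.18 in all nuclei of the clusters. Ano4 and Hpgds had log2 fold changes of -1.26 ± 0.31 and -1.72 ± 0.46 (adjusted p 0.472 and 0.615), and both had too few UMIs in the clustered members to be tested.

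**Figure D4:**
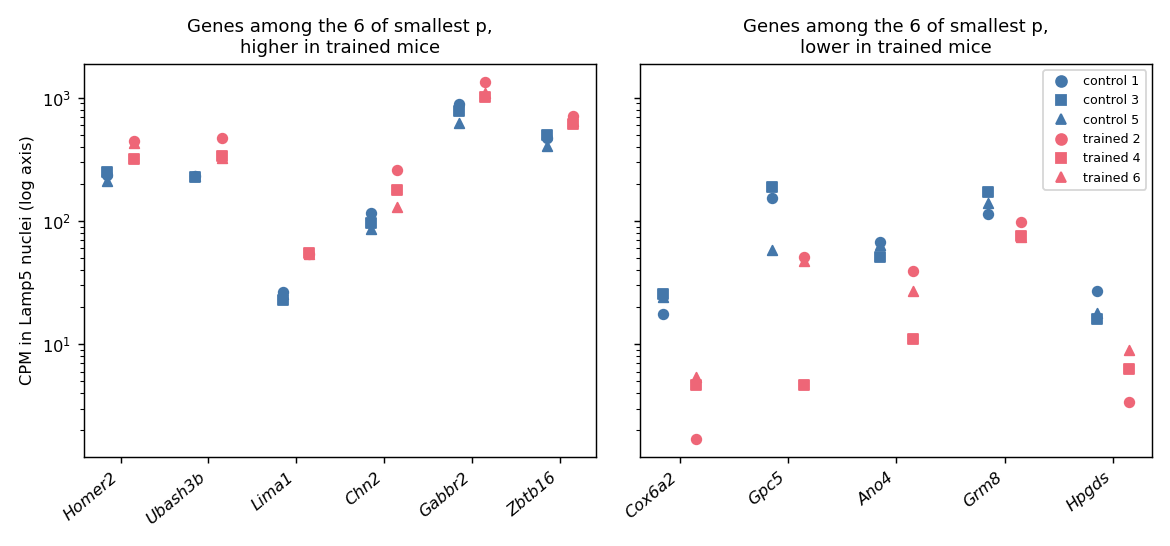
CPM in Lamp5 members by mouse on a log axis, for genes among the 6 of smallest p in each direction between trained and control mice. Blue symbols are control mice and red symbols trained mice. In every gene drawn the groups do not overlap, but none passed the test across 7940 genes.

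Gene groups were described by counts, since 0 members of any list passed. Over all 7940 genes tested, 3965 had a higher mean in trained mice and 3975 a lower one. Of 12 tested scaffold genes, 11 had a higher mean in trained mice (median log2 fold change 0.22, against -0.000336 over all genes). Homer1 was the exception, at 151, 167 and 119 CPM in controls against 138, 92.2 and 95.9 CPM after training (-0.41 ± 0.18), and its value was 0.027 in the clustered members. Dlgap3, a partner of Shank scaffolds, was at 0.39 ± 0.19 and Dlgap2 at 0.25 ± 0.14. Of 19 GABA genes, 11 had a higher mean (median 0.011). After Gabbr2, those of smallest p were Abat, which breaks down GABA, at 0.34 ± 0.17, Gabrd at -0.30 ± 0.22 and Gabrb1 at -0.16 ± 0.13. Of 31 channel genes, 14 had a higher mean (median -0.0029). Kcnip1, a subunit that regulates A-type potassium channels, was at 582, 478 and 474 CPM in controls against 758, 628 and 697 CPM after training, without overlap (0.45 ± 0.13, edgeR adjusted p 0.679, and 0.28 ± 0.14 in all nuclei of the clusters). Cacna1g, a T-type calcium channel, was at 0.51 ± 0.21, Kcnd3 at 0.38 ± 0.16 and Kcnb2 at -0.31 ± 0.14, all as log2 fold changes.

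The neurogliaform genes had a median of -0.14 over 21 tested, 6 with a higher mean in trained mice. Pdlim5, a cytoskeletal adaptor gene, was at 43.9, 44.5 and 55.5 CPM in controls against 40.8, 29.7 and 23.5 CPM after training, without overlap (-0.58 ± 0.26, edgeR adjusted p 0.988). Kit, the receptor tyrosine kinase, was at 552, 635 and 581 CPM in controls against 544, 531 and 442 CPM after training, also without overlap (-0.20 ± 0.13). Tnfaip8l3 was at 0.36 ± 0.19 on the log2 scale. Fam19a1 was at -0.98 ± 0.64, and varied from 24 CPM in control mouse 5 to 508 CPM in control mouse 3. Of 6 genes of the caudal lineage, 4 had a higher mean (median 0.06), with Nr2f1 at 0.39 ± 0.18, Prox1 at 0.17 ± 0.18, Id2 at -0.14 ± 0.18 and Adarb2 at 0.087 ± 0.15. Of 4 genes of the medial lineage the median was 0.069, and Maf was at 0.20 ± 0.13, Sox6 at -0.37 ± 0.52 and Satb1 at -0.064 ± 0.38. Of 7 peptide and peptide receptor genes, 4 had a higher mean (median 0.11). The somatostatin receptor gene Sstr2 was at 1.15 ± 0.47, the cholecystokinin gene Cck at 0.31 ± 0.24, Adcyap1r1 at 0.24 ± 0.25 and Rxfp1 at -0.18 ± 0.23. Npy had a log2 fold change of -0.044 ± 0.23.

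The nitric oxide genes had a median of 0.015 over 6 tested, 3 with a higher mean. Prkg1, the kinase that cyclic GMP activates, was at -0.50 ± 0.24 and Pde5a, which degrades cyclic GMP, at 0.58 ± 0.29. Gucy1b1, a guanylate cyclase subunit, was at -0.23 ± 0.27 and Nos1ap at 0.073 ± 0.14. Of 10 modulator receptor genes, 7 had a higher mean (median 0.12), with Adra1b at 0.38 ± 0.21, Htr1f at 0.23 ± 0.16, Htr2a at -0.23 ± 0.20 and Chrm3 at 0.14 ± 0.15. Of 17 glutamate receptor and gap junction genes, 13 had a higher mean (median 0.035). After Grm8, they were led in p by Grm7, a presynaptic glutamate receptor, at 357, 368 and 302 CPM in controls against 251, 219 and 299 CPM after training, without overlap (-0.41 ± 0.14 over all members and -0.12 in the clustered members), then Grin1 (0.25 ± 0.14) and Grin2a (0.24 ± 0.16). Of 26 adhesion genes, 11 had a higher mean (median -0.022), with Lrfn2 at 0.47 ± 0.20, Lrrtm3 at 0.31 ± 0.13, Slitrk2 at -0.76 ± 0.39 and Cntnap4 at -0.85 ± 0.43. Of 20 release genes, 8 had a higher mean (median -0.086), with Sv2b at -0.74 ± 0.29, Vamp2 at -0.31 ± 0.24 and Pclo at -0.16 ± 0.13. Sv2b is also a glutamatergic marker, and the sum of those markers was also lower in the trained mice over all members, where its part in the value was not tested.

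Immediate early genes, which neurons induce within minutes of strong activity, were scarce in the members. Of 26 listed, 23 had a UMI and 8 were tested, 7 of them with a higher mean in trained mice (median log2 fold change 0.27). Egr1 was at 19.5, 25.6 and 43.5 CPM in controls against 20.4, 45.3 and 50.7 CPM after training (0.46 ± 0.35), and the groups overlapped. The other tested genes lay between -0.29 ± 0.33 for Nr4a3 and 0.41 ± 0.45 for Ier2. Fos, at 6.82, 8.09 and 34.5 CPM in controls against 8.495, 18.8 and 23.5 CPM after training, was highest in control mouse 5 (0.16 ± 0.55). Nr4a1, Junb and Fbxo33 were at 0.26 ± 0.25, 0.27 ± 0.30 and 0.29 ± 0.28. Of the untested ones, Klf4, Atf3 and Maff had no UMI, and the rest, such as Arc, Npas4 and Fosb, had between 1 UMI (Egr2) and 51 UMIs (Ier5) in all members. Of 12 delayed activity genes, 8 had a higher mean (median 0.16), with Vgf at -0.32 ± 0.22, Plk2 at 0.21 ± 0.16 and Pcsk1 at 0.76 ± 0.61.

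Of 11 glucocorticoid-responsive genes, 8 had a higher mean in trained mice (median 0.18). After Zbtb16 these were Mt1, a metallothionein, at 0.47 ± 0.24, Errfi1 at 0.40 ± 0.21, and Nr3c1, the glucocorticoid receptor itself, at -0.45 ± 0.21. All 6 tested mitochondrially encoded genes had a higher mean (median 0.57). mt-Co3 was at 60.4, 36.4 and 49.5 CPM in controls against 141, 57.8 and 65.2 CPM after training (0.84 ± 0.29, edgeR adjusted p 0.881). Trained mouse 2 was far above the other mice, whose groups overlapped. mt-Atp6, mt-Co1 and mt-Co2 were at 1.06 ± 0.41, 0.54 ± 0.23 and 0.60 ± 0.37. Mitochondrial UMIs made up 0.0281, 0.0157 and 0.0204% of member UMIs in control mice 1, 3 and 5 and 0.0518, 0.0232 and 0.0252% in trained mice 2, 4 and 6.

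Whether the training difference in the members differed from that in another interneuron class was tested as an interaction, with both sums of each mouse and mouse as a block. Against Vip nuclei, 5 of 9086 genes passed (0.055%) by edgeR at an adjusted p under 0.05. Against Sst nuclei 2 of 10512 passed (0.019%) and against Pvalb nuclei 6 of 8673 (0.0692%). At an unadjusted p under 0.05 the counts were 502, 521 and 435. DESeq2 called 0, 0 and 1. With clustered members alone and without doublets in the comparison nuclei, 1, 0 and 1 passed.

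Against Vip nuclei, Pla2g6, a phospholipase gene, was at 16.2, 17.2 and 9.496 CPM in controls against 26.6, 18.4 and 3.299 CPM after training in the members and at 2.37, 2.06 and 5.02 CPM in controls against 94.4, 8.39 and 9.85 CPM after training in Vip nuclei, where trained mouse 2 was far above the others. The interaction was -3.35 ± 0.68 on the log2 scale (edgeR adjusted p 0.0417), and Pla2g6 was the gene that also passed among clustered members. Mir670hg, a long noncoding host gene of a microRNA, was at 29.6, 45.4 and 36.6 CPM in controls against 35.9, 25.5 and 51.1 CPM after training in the members and at 88.5, 151 and 81.6 CPM in controls against 385, 179 and 282 CPM after training in Vip nuclei (-1.40 ± 0.28, adjusted p 0.0417). The members' groups overlapped and those of the Vip nuclei did not. Col25a1, a transmembrane collagen gene, was at 52.1, 69.9 and 43.4 CPM in controls against 42.2, 34.01 and 61.03 CPM after training in the members and at 62.4, 35.1 and 60.3 CPM in controls against 135, 190.3 and 86.99 CPM after training in Vip nuclei, where the groups did not overlap (-1.68 ± 0.34, adjusted p 0.0417). Unc5d, a netrin receptor gene, was at 875, 664 and 757 CPM in controls against 1061, 743 and 724 CPM after training in the members and at 47.4, 44.4 and 52.7 CPM in controls against 25.4, 22.4 and 18.1 CPM after training in Vip nuclei (1.22 ± 0.25, adjusted p 0.0417). Bnc2 had 34 UMIs in all members, most in control mice 3 and 5, each of which had 1 member in the GABAergic cluster led by Bnc2 (-7.33 ± 0.9995, adjusted p 0.000138). In Vip nuclei Bnc2 was at 0.79, 1.03 and 1.26 CPM in controls against 39.5, 1.40 and 13.1 CPM after training, highest in trained mouse 2. The part of those members or of single Vip nuclei in the result was not tested. Each of the 5 missed the threshold with at least 1 mouse left out, and Pla2g6 without trained mouse 2 was at -1.96 (adjusted p 0.887), while Mir670hg without trained mouse 2 was at -1.09 (adjusted p 0.406). Atp8b1, next to Unc5d in p in that direction, did not pass (adjusted p 0.071), and in the members it was at 26.3, 33.7 and 34.5 CPM in controls against 71.4, 43.8 and 61.6 CPM after training.

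The genes that passed against Sst and Pvalb nuclei included Gpc5, Ptgds, St18 and Slc1a3, all known from glia or meninges, and Cox6a2. Gpc5 passed against Sst (-2.27 ± 0.33, edgeR adjusted p 0.00253) and against Pvalb nuclei (-2.83 ± 0.36, adjusted p 0.000128). Sst nuclei held 426, 432 and 291 CPM of Gpc5 in controls and 581, 406 and 417 CPM after training, above the members in every mouse. Pvalb nuclei held 37.4, 115 and 10.8 CPM in controls and 110, 12.9 and 167 CPM after training. Ptgds, which makes prostaglandin D2 and is known from oligodendrocytes and meninges, passed against both (-1.88 ± 0.31 and -2.65 ± 0.48), and was at 33.2, 354 and 164 CPM in controls against 35.9, 109 and 54.4 CPM after training in the members. The oligodendrocyte gene St18 (-4.07 ± 0.78) and the astrocyte glutamate transporter gene Slc1a3 (-3.42 ± 0.65) passed against Pvalb nuclei. In Pvalb nuclei St18 was at 0, 1.28 and 9.43 CPM in controls against 18.3, 3.69 and 61.6 CPM after training. Slc1a3 was there at 0, 14.1 and 2.69 CPM in controls against 10.2, 1.85 and 82.7 CPM after training. Both were highest in trained mouse 6, and in the members the groups overlapped for both genes. Of 8 members in the oligodendrocyte-gene cluster, 3 came from control mouse 5. Among clustered members Gpc5 was at -1.05 against Sst and -3.07 against Pvalb nuclei and Ptgds at 0.39 and -0.27, and none of these passed. Without trained mouse 6, St18 was at -2.60 (adjusted p 0.884) and Slc1a3 at -1.51 (adjusted p 0.991) against Pvalb nuclei, and without trained mouse 4 Ptgds was at -0.79 (adjusted p 0.9697) against Sst nuclei. The glial marker sums of the members are given by range with the markers of other cell types. The part of glial material in these results, in the members or in the comparison nuclei, was not tested.

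Cox6a2 was the gene that passed against Pvalb nuclei both over all members (-2.71 ± 0.50, edgeR adjusted p 0.0198) and over clustered members (-2.84 ± 0.50, adjusted p 0.0288). It was at 16.2, 23.3 and 21.7 CPM in controls against 1.56, 4.25 and 4.95 CPM after training in the members and at 40.8, 51.2 and 41.8 CPM in controls against 30.5, 66.5 and 65.1 CPM after training in Pvalb nuclei. It missed the threshold without control mouse 5, -2.59 (adjusted p 0.116), trained mouse 4, -2.69 (adjusted p 0.125), or trained mouse 6, -2.82 (adjusted p 0.1402). Genes in the other direction did not pass. Against Sst nuclei they were Ptk2b, a calcium-activated tyrosine kinase gene (adjusted p 0.316), and Dgkg, a diacylglycerol kinase gene (adjusted p 0.316). In the members Ptk2b was at 36.1, 49.9 and 25.5 CPM in controls against 74.8, 71.9 and 61.6 CPM after training, without overlap. Against Pvalb nuclei they were Ror1 (adjusted p 0.0686) and Col26a1 (adjusted p 0.151). Several of the named genes overlap annotated genes on the other strand, among them Crispld1, Prox1, Grin1, Zfp804b, Sema3e, Pclo, Cacna2d1, Reln, Kcnip4, Gabrb1, Dlg2, Cox6a2, Galntl6, Junb, Cntnap4, Maf, Cntn5, Opcml, Tnfaip8l3, Lrrtm3, Pcdh15, Kcnip1, Sstr2, Npas3, Nr2f1, Lima1, Pip5k1b, Prkg1 and Trpc5, and whether counting used the strand is not given in the sources used here. Reads of mt-Atp6 and mt-Co3, of Adamtsl1 and Sh3gl2, and of Kcnip1 and its neighbour on the same strand may be hard to assign.

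**Figure D5:**
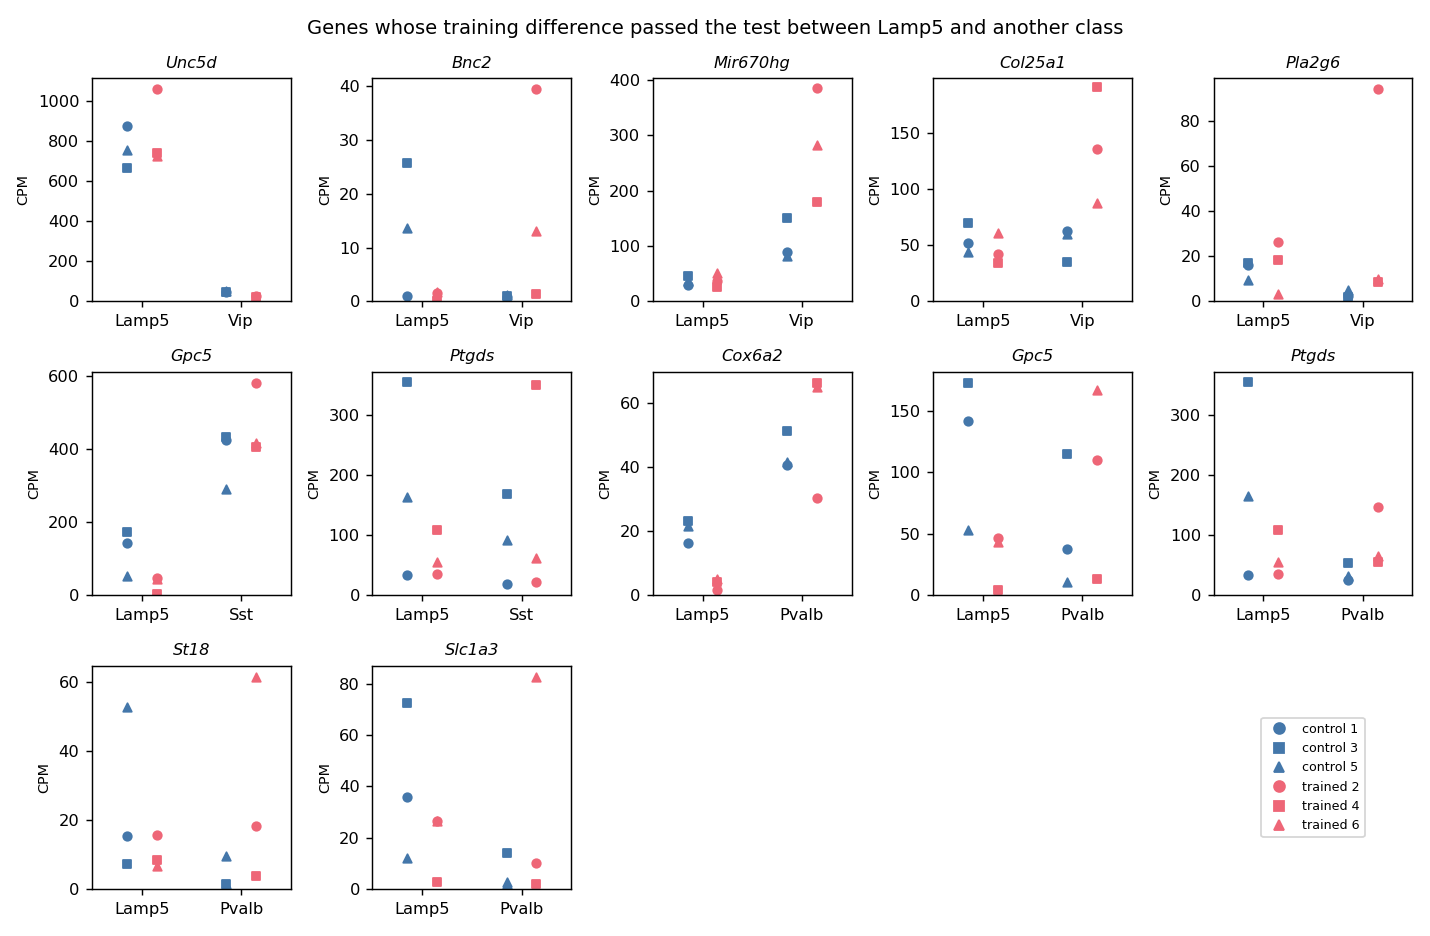
CPM by mouse in Lamp5 members and in the other class, each panel a gene whose training difference passed the test between the classes. Blue symbols are control and red symbols trained mice. In several panels 1 mouse is far from the rest, such as trained mouse 2 for Pla2g6 in Vip nuclei and trained mouse 6 for Slc1a3 in Pvalb nuclei.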

How the data were processed

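Droplet single-nucleus RNA sequencing covered 3 control and 3 trained mice, 2 runs each. The deposited data are UMI counts (1 sparse matrix for all mice, whole numbers throughout) with lists of barcodes and genes that hold names only. Reads were processed with Cell Ranger 4.0.0 on mm10, per the submitters' processing notes. Whether the matrix joins the shallow and deep runs of a mouse, counts introns or uses strand is not given in the sources used here. Each barcode's suffix gave the mouse, per the series' design text.

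Barcodes with at least 500 genes and under 5% mitochondrial UMIs were kept (51683 of 51926). Members and comparison nuclei were chosen by UMI counts, and the members and gene lists were chosen with earlier results of these data known. GABAergic nuclei were clustered (scanpy 1.11.5, 1957 variable genes, 30 components, 15 neighbours, Leiden resolution 1, leidenalg 0.10.2, igraph 0.11.9), and Scrublet ran per mouse with 6% expected doublets. Doublets were kept, and leaving them out was an alternative. UMI sums per mouse were tested with edgeR 4.0.16 in R 4.3.3 (TMM, filterByExpr, quasi-likelihood test, Benjamini-Hochberg threshold 0.05), and with DESeq2 1.42.0 as the alternative. Standard errors of log2 fold changes came from the fold change and its F statistic. Sums held 562504 to 1054437 UMIs per mouse. The tests were checked on simulated counts with the same spread between mice set for every gene and changes set only in genes of higher counts. That check does not cover genes of few UMIs or single outlying mice. Shares were compared by exact two-sided permutation (smallest p 0.1), with 95% Clopper-Pearson intervals for pooled shares, which cover counting error only. The labels name no batch. Positions came from GENCODE M21 (mm10).

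Named genes were, in the training comparison, the 6 higher and 6 lower of smallest p, and up to 4 tested genes of each list. In each interaction they were the 2 of smallest p each way, and in the Ndnf split the 10 of smallest p each way and list members. Against other interneurons they were the 15 of largest log2 ratio with at least 50 CPM. Homer2 was named from earlier results. Other genes of the class description, list genes of the split beyond the neurogliaform, lineage and peptide lists, and further interaction genes that passed were chosen after their values were seen. Predicted genes were counted and not named. Some genes that these rules chose are not reported here and stay in the counts. Remaining steps used Python 3.11.15, numpy 2.4.6, scipy 1.17.1, pandas 2.3.3, scikit-learn 1.9.0 and matplotlib 3.10.9.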

Additional observations from a re-analysis of the deposited data

Results flagged for a closer look

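In 12 instances given here the training difference in Lamp5 nuclei differed from that in another interneuron class by edgeR's test of the difference itself, and these were marked for that reason. The values are log2 differences of the 2 training effects, members minus the other class. Against Vip nuclei they were 1.22 (adjusted p 0.0417) for Unc5d, -7.33 (adjusted p 0.000138) for Bnc2, -1.40 (adjusted p 0.0417) for Mir670hg, -1.68 (adjusted p 0.0417) for Col25a1 and -3.35 (adjusted p 0.0417) for Pla2g6. Against Sst nuclei they were -2.27 (adjusted p 0.00253) for Gpc5 and -1.88 (adjusted p 0.00894) for Ptgds. Against Pvalb nuclei they were -2.71 (adjusted p 0.0198) for Cox6a2, -2.83 (adjusted p 0.000128) for Gpc5, -2.65 (adjusted p 0.0198) for Ptgds, -4.07 (adjusted p 0.0266) for St18 and -3.42 (adjusted p 0.0259) for Slc1a3. In clustered members with comparison doublets left out, Pla2g6 and Cox6a2 passed. Bnc2, St18 and Slc1a3 had too few UMIs there to be tested, and the others did not pass. With 1 mouse left out in turn, Gpc5 against Sst nuclei had an adjusted p of at most 0.0221, and the other 11 reached between 0.0683 and 0.991. The mice whose omission ended a call are given in parentheses. Against Vip nuclei the threshold was missed by Unc5d (mouse 3, 5, 2, 4 or 6), Bnc2 (mouse 3 or 2), Mir670hg (mouse 3, 5, 2 or 4), Col25a1 (mouse 3, 2 or 4) and Pla2g6 (mouse 1, 3, 2 or 6). Against Sst nuclei the threshold was missed by Ptgds (mouse 3 or 4). Against Pvalb nuclei the threshold was missed by Cox6a2 (mouse 5, 4 or 6), Gpc5 (mouse 6), Ptgds (mouse 3, 5 or 6), St18 (mouse 1, 5 or 6) and Slc1a3 (mouse 1, 5 or 6). Groups of 3 mice are too small for a test of single outlying samples.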

How the results depend on the processing

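No paired analysis of training was possible because control and trained mice share no replicate numbers. The training comparison called 24 genes with no filter on low counts and 0 to 2 with 1 mouse left out, and 0 under every other alternative run, DESeq2 included. The interactions with Vip, Sst and Pvalb nuclei called 23, 20 and 35 genes with no filter, 0, 0 and 1 with DESeq2, 0 each with a marker sum of at least 10, and 1, 0 and 1 in clustered members without comparison doublets. With 1 mouse left out they called 0 to 9, 1 to 5 and 0 to 18. Leaving out control mouse 3 gave 0 against Vip nuclei, control mouse 1 gave 9 and trained mouse 2 gave 3. Against Sst nuclei, leaving out trained mouse 4 gave 1, trained mouse 2 gave 5 and control mouse 5 gave 4. Against Pvalb nuclei, leaving out trained mouse 6 gave 0, control mouse 5 gave 1, trained mouse 2 gave 17 and control mouse 3 gave 18. The Ndnf split called 101 genes with DESeq2, 579 with counts not thinned, 153 to 188 with 1 mouse left out and 164 without the replicate block, 163 of them among the 179. With no filter it called 179 of 15895, 123 of them shared, with 57 higher and 122 lower. The Lhx6 split could not be fitted, since 2 thinned members had a Lhx6 UMI. The trained minus control share of kept nuclei, -0.0175 percentage points, was 0.0208 for clustered members, 0.0918 for all nuclei of the clusters and -0.122 to 0.06504 with 1 mouse left out. Shares of thinned members with a UMI (trained minus control, percentage points) changed sign with counts not thinned for Ndnf (-1.04) and Npy (1.21) and with a marker sum of at least 10 for Ndnf (-4.96), Npy (3.23), Reln (-4.88) and Nos1 (-0.846), and with 1 mouse left out ranged from -0.306 to 0.606 for Lhx6, from -2.33 to 5.83 for Ndnf, from -12.96 to 0.342 for Npy and from -0.2502 to 7.86 for Reln. None of the training log2 fold changes that changed sign had passed the test. They did so with a marker sum of at least 10 for Fam19a1 (0.00029), Adarb2 (-0.065) and Nr4a1 (-0.26), with the median UMIs of members as a covariate for Id2 (0.067), Adarb2 (-0.011), Sox6 (0.40), Adcyap1r1 (-0.017), Nos1ap (-0.052), Vamp2 (0.15) and mt-Co2 (-0.13), with the mitochondrial percent as a covariate for Id2 (0.062), Sox6 (0.24), Adcyap1r1 (-0.079), Prkg1 (0.0051), Nos1ap (-0.10), Htr1f (-0.0014), Vamp2 (0.13) and mt-Co2 (-0.20), in all nuclei of the clusters for Adarb2 (-0.097), Chrm3 (-0.22) and Fbxo33 (-0.095) and in clustered members for Homer1 (0.027). With 1 mouse left out, ranges that crossed 0 were -0.062 to 0.32 for Prox1, -0.28 to 0.0023 for Id2, -0.052 to 0.26 for Adarb2, -1.04 to 0.041 for Sox6, -0.27 to 0.16 for Satb1, -0.35 to 0.19 for Rxfp1, -0.35 to 0.042 for Gucy1b1 and -0.045 to 0.20 for Nos1ap. In clustered members the interaction of Ptgds against Sst nuclei was 0.39, and the Ndnf split of Kit was 0.033 with counts not thinned. The cause of these changes was not tested. For single named genes and shares, 1633 of the values under an alternative kept their direction and side of the threshold, 64 no longer passed, 25 newly passed and 47 changed sign. With 55 to 109 nuclei per mouse, genes of few UMIs were not tested, and smaller differences were not detectable at this depth. The alternatives on all nuclei of the clusters, on Lamp5 and Sv2c alone and on clustered members in the split and interactions were chosen after seeing the data.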
